A study of Mus musculus with 23 samples.

Results

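The 37 genes described here encode aminoacyl-tRNA synthetases, 21 of the cytosolic set and 16 of the mitochondrial set. They were taken by gene symbol from the 35976 genes of the count table, with no use of measured values. All 37 were among the 16121 genes with enough counts to be tested. Microglia, the resident macrophages of the brain, came from striata of C57BL/6J mice, all male, and gave 23 RNA-seq libraries. Maintenance mice (8 libraries) pressed a lever for intravenous methamphetamine, at 0.05 mg/kg per infusion, in sessions of 2 hr on 15 days, and their cells were taken right after the last session. Saline mice (8 libraries) worked for saline infusions on the same schedule and were sampled at the same stage. Abstinence mice (7 libraries) also took methamphetamine for 15 days and then spent 21 days in the home cage without it. The protocol text gives an age of 9 weeks for the mice, without saying at which stage. No Saline library comes after such a home-cage period, so drug history, time and housing cannot be told apart in the Abstinence group.

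An aminoacyl-tRNA synthetase joins an amino acid to its tRNA, and the charged tRNA then feeds the ribosome. Cytosolic and mitochondrial translation use mostly separate synthetases, both encoded in the nucleus, while Gars and Kars each give rise to enzymes for both compartments. Uncharged tRNA activates the kinase GCN2, which favours translation of the transcription factor ATF4, and ATF4 in turn induces many cytosolic synthetase genes. Several cytosolic synthetases sit together in the multisynthetase complex. In microglia, as in other macrophages, protein synthesis changes with activation.

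Libraries held between 54970954 and 94827095 counts (median 75394102), with 12137 to 16129 genes at 10 counts or more. The labels name the cell type as microglia but list the tissue as "Neuronal". The 10 microglial markers, among them Tmem119, P2ry12 and Cx3cr1, were all detected, and their summed level had medians of 57746 CPM (counts scaled to a common library total) in Saline, 53677 in Maintenance and 55333 in Abstinence. Markers of other cells differed between groups and libraries. The mean log2 CPM of 7 monocyte markers was 3.21 ± 0.81 (SD, n = 8) in Saline, 1.65 ± 0.72 (n = 8) in Maintenance and 2.76 ± 0.69 (n = 7) in Abstinence, with summed levels of 106 to 326, 113 to 255 and 104 to 200.4 CPM. The same mean over 12 neutrophil markers was 1.69 ± 1.92, -0.97 ± 1.03 and -1.44 ± 0.78, with Mpo and Elane at 0 counts in every Maintenance library and Mpo, Elane, Ltf and Ly6g in every Abstinence library. For 12 oligodendrocyte markers it was 5.95 ± 0.90, 6.74 ± 0.74 and 6.85 ± 0.46. For 9 striatal neuron markers it was 1.02 ± 0.94, -0.12 ± 1.39 and 1.45 ± 0.75, lowest in Maintenance as for the monocyte markers, with summed levels of 21.2 to 107, 28.0 to 378 and 33.9 to 114 CPM and none at 0 throughout a group. The part of the neuron markers in the results below was not tested. The Maintenance 6 and 7 libraries had the fewest genes detected, 12137 and 12386, and in Maintenance 8, the library with the most, the markers of choroid plexus and ependyma summed to 44558 CPM. In RNA from pooled cells, fewer cells of a type and less RNA per cell cannot be told apart.

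Levels in Saline were compared between genes only after division by transcript length. The median was 22.7 CPM per kilobase over the 21 cytosolic genes, with a range from 0.497 to 192, and 4.04 over the 16 mitochondrial genes, with a range from 0.289 to 18.8. The set holds genes of both compartments for 16 amino acids. In 13 of these the 2 genes share a symbol stem, as Aars and Aars2 do, and the cytosolic gene was higher in 13, with a median ratio of 4.07 per kilobase of transcript and 3.68 per kilobase of coding sequence. For the other 3 the cytosolic gene was also higher: Farsa and Farsb, the subunits of the phenylalanine enzyme, were 1.95 and 2.33 times Fars2, and Eprs was 13.4 times Ears2 (glutamate) and 20.4 times Pars2 (proline) per kilobase of transcript.

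**Figure D1:**
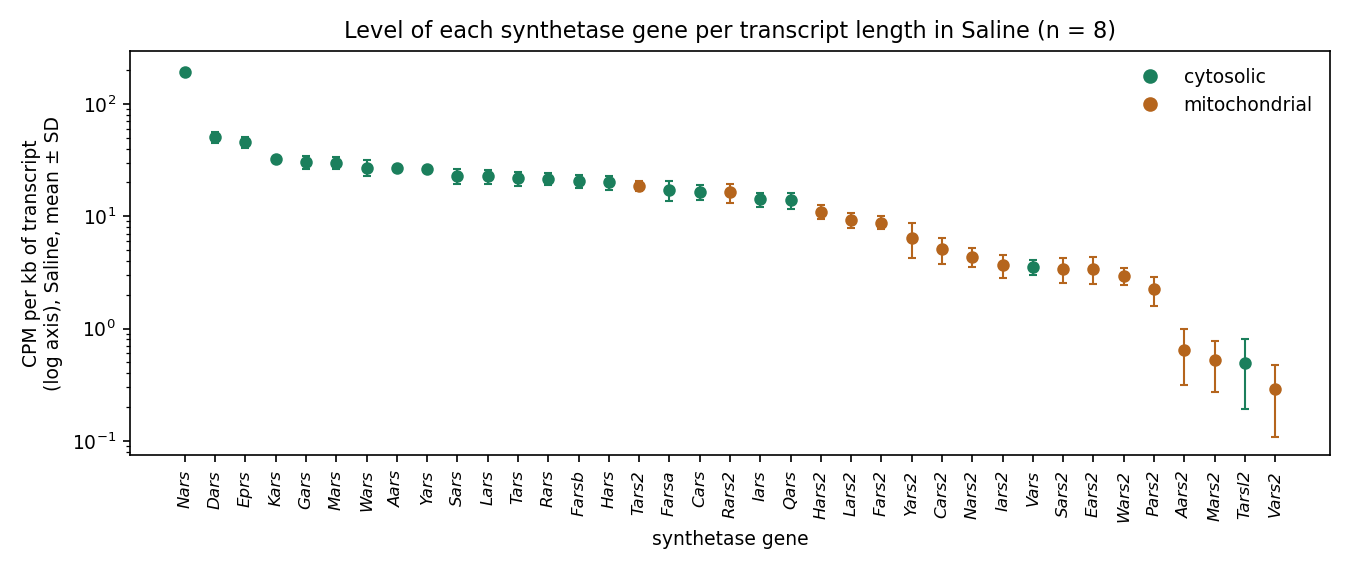
Level of each synthetase gene in Saline as CPM per kilobase of transcript (log axis, mean ± SD over 8 libraries), ordered by level and coloured by compartment. Nars is highest at 192, and the mitochondrial genes fill most of the lower end down to Vars2 at 0.289.

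Nars, the asparagine enzyme, was the most abundant at 192 ± 12.2 CPM per kilobase of transcript (SD, n = 8), followed by the aspartate gene Dars at 50.7 ± 5.75 and the bifunctional glutamate and proline gene Eprs at 45.6 ± 4.94. Those SDs do not bring Nars near the next gene, while the mean of Eprs lies within 1 SD of that of Dars. Nars alone made up 27.0 ± 0.960% of the summed CPM of the cytosolic genes in Saline, 28.8 ± 3.13% in Maintenance and 25.4 ± 1.86% in Abstinence. The narrowest and widest gaps between compartments depended on the length used. Per kilobase of transcript the narrowest was for threonine, where Tars was 1.17 times Tars2, and the widest for methionine, where Mars was 57.7 times Mars2. Per kilobase of coding sequence these ratios were 1.95 and 9.75, and the narrowest gap was for histidine (Hars 1.08 times Hars2) and the widest for alanine (Aars 71.5 times Aars2). These pairs were picked out after their values were seen. The transcript length used for Mars2, 11.3 kilobases, is longer than its RefSeq bounds (chr1:55237177-55240058), so its level per kilobase of transcript is uncertain.

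Tests used edgeR's quasi-likelihood fit over all 16121 genes and 23 libraries, with p-values adjusted by Benjamini-Hochberg over all genes and called under 0.05. Nothing in the labels says that libraries came from separate animals, so p-values measure only the spread between these libraries, which may be technical. The group comparisons share libraries, Maintenance against Saline and Abstinence against Maintenance having the Maintenance libraries in common, so their values are set side by side and not counted as separate support.

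At the end of methamphetamine taking, 3 synthetase genes were lower than in Saline: Aars, Lars and Mars, which charge the tRNAs for alanine, leucine and methionine. After 21 days of abstinence these 3 and Yars, the tyrosine gene, were higher than in Maintenance. All 4 are cytosolic. In Maintenance against Saline, 3 of 37 synthetases fell and 0 rose, beside 0.707% of all tested genes called in either direction (0.372% lower and 0.335% higher). In Abstinence against Maintenance 4 of 37 rose and 0 fell, beside 0.949% of all genes called, 0.397% higher and 0.552% lower. DESeq2 called 5 higher there, the fifth being the serine gene Sars, and limma voom the same 4 as edgeR. In Abstinence against Saline 0 of 37 passed by edgeR, DESeq2 or limma voom, beside 0.0186% of all genes by edgeR. At an unadjusted p under 0.05 that comparison had 2 of 37 higher and 0 lower, Iars and Lars2, beside 2.15% and 2.23% of all genes. The same threshold took in 8 lower and 2 higher synthetases in Maintenance against Saline, beside 5.73% and 6.06% of all genes. It took in 10 higher and 0 lower in Abstinence against Maintenance, beside 5.11% and 5.86% of all genes.

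**Figure D2:**
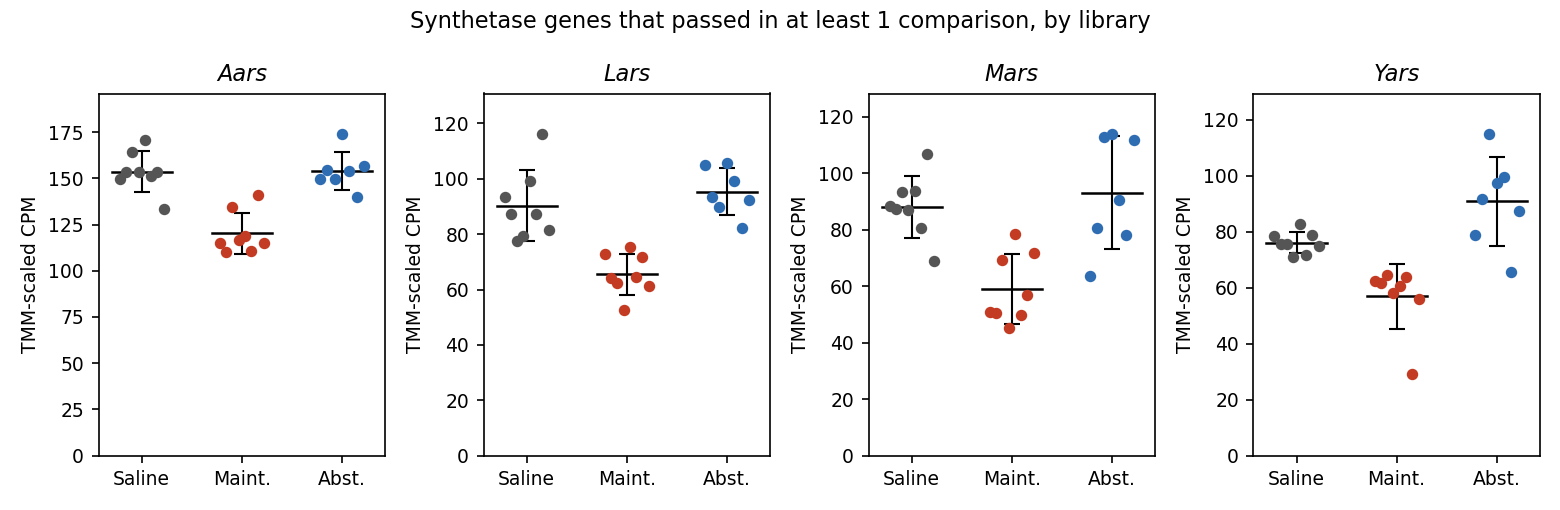
TMM-scaled CPM of Aars, Lars, Mars and Yars in every library of Saline (n = 8), Maintenance (n = 8) and Abstinence (n = 7), with the mean (line) and SD (bars). The Maintenance mean is lowest for each gene, and for Lars and Yars no Maintenance library reaches the range of either other group. For Aars and Mars the Maintenance range overlaps those of both other groups.

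Aars lies on chr8:111027778-111055569 of GRCm38.p6. Its level ran from 133 to 171 CPM in Saline (median 153), from 110.4 to 141 in Maintenance (median 116) and from 139.9 to 174 in Abstinence (median 154). Of the 8 Maintenance libraries, 6 were below every Saline library, and the ranges overlapped slightly. Aars fell in Maintenance to 0.782 of Saline, a log2 fold change of -0.35 ± 0.06 (SE, adjusted p = 0.00471). It rose in Abstinence against Maintenance by 0.36 ± 0.07 (adjusted p = 0.00564), and the Abstinence to Saline difference was 0.00 ± 0.07 (95% interval -0.13 to 0.13).

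Lars ran from 77.5 to 116 CPM in Saline (median 87.3), from 52.5 to 75.3 in Maintenance (median 64.4) and from 82.1 to 106 in Abstinence (median 93.5). Every Maintenance library was below every library of the other groups. In log2 units Lars fell in Maintenance by 0.46 ± 0.09 (adjusted p = 0.00873). It rose in Abstinence against Maintenance by 0.54 ± 0.09 (adjusted p = 0.00195). Against Saline, Abstinence differed by 0.08 ± 0.09 (95% interval -0.10 to 0.26).

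Mars, on chr10:127296221-127311786, encodes the enzyme that charges both the initiator and the elongator methionine tRNA. Its level ran from 68.8 to 107 CPM in Saline (median 87.8), from 45.0 to 78.6 in Maintenance (median 53.8) and from 63.7 to 114 in Abstinence (median 90.7). All 8 Maintenance libraries were below the Saline median, though 3 of them lay within the Saline range. Mars fell in Maintenance to 0.669 of Saline, a log2 fold change of -0.58 ± 0.13 (adjusted p = 0.0286). It rose in Abstinence against Maintenance by 0.66 ± 0.13 (adjusted p = 0.0113). The decrease was called in 13 of the 23 fits that each leave out 1 library, with adjusted p up to 0.067, and was lost without any 1 of Saline 1, 2, 3, 4, 5 or 7 or Maintenance 1, 2, 4 or 6. Its log2 fold change in those 23 fits stayed between -0.64 and -0.53. At its 3′ end Mars shares 68 exonic bases with Ddit3 on the opposite strand, and the labels do not state whether counting used strand. Ddit3 had a log2 fold change of 0.17 ± 0.12 in Maintenance against Saline (adjusted p = 0.646).

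Yars, on chr4:129189734-129219240, ran from 70.9 to 82.9 CPM in Saline (median 75.8), from 29.2 to 64.4 in Maintenance (median 61.2) and from 65.6 to 115 in Abstinence (median 91.7). The Maintenance range lay below both others, and the lowest value, 29.2 CPM in Maintenance 7, stood apart from the next at 55.8. Yars rose in Abstinence against Maintenance to 1.59 times its level, a log2 fold change of 0.67 ± 0.13 (adjusted p = 0.00638). The Maintenance to Saline difference of -0.42 ± 0.12 was not called (adjusted p = 0.112), and without Maintenance 7 it was -0.32 ± 0.09 (adjusted p = 0.0826). Abstinence against Saline was 0.25 ± 0.13 (adjusted p = 0.999).

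Lars and Yars were the 2 synthetases whose Maintenance and Saline ranges did not overlap, and likewise the 2 whose Maintenance and Abstinence ranges did not. Among all tested genes 0.248% had Maintenance wholly below Saline and 0.205% had Abstinence wholly above Maintenance.

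The decreases in Maintenance were no longer called when marker levels entered the fit. When the mean levels of the oligodendrocyte and of the neutrophil markers were covariates, the log2 fold changes were -0.29 ± 0.09 for Aars (adjusted p = 0.241), -0.49 ± 0.12 for Lars (adjusted p = 0.104) and -0.48 ± 0.16 for Mars (adjusted p = 0.296). With the monocyte marker mean, a covariate added after the data were seen, they were -0.34 ± 0.09 (adjusted p = 0.212), -0.52 ± 0.12 (adjusted p = 0.0986) and -0.73 ± 0.17 (adjusted p = 0.125). The fold changes kept their direction, and their standard errors were larger than in the fit without covariates. Under both sets of covariates the increases of all 4 genes in Abstinence against Maintenance stayed called, with adjusted p from 0.00523 to 0.0463.

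ATF4 target status divided the cytosolic genes into a group of 12 known ATF4 targets (Aars, Cars, Eprs, Gars, Iars, Lars, Mars, Nars, Sars, Tars, Wars and Yars) and 9 others. This division was made with earlier results of these data known, so it is no independent evidence of direction. In Maintenance against Saline 11 of the 12 targets had a negative log2 fold change, beside 49.4% of all genes negative. The median was -0.23, beside 0.01 over all genes. Of the 12, 3 fell and 0 rose, beside 0.372% and 0.335% of all genes. In Abstinence against Maintenance 9 of the 12 were positive, beside 49.2% of all genes negative. The median was 0.29, beside 0.01 over all genes. There 4 of the 12 rose and 0 fell, beside 0.397% and 0.552% of all genes. In Abstinence against Saline the median was 0.06 and 0 passed, beside 0.0186% of all genes.

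The 9 other cytosolic genes (Dars, Farsa, Farsb, Hars, Kars, Qars, Rars, Tarsl2 and Vars) had a median of 0.08 in Maintenance against Saline, with 4 negative and 5 positive, and -0.05 in Abstinence against Maintenance. Of all genes edgeR called 0.707% in the first comparison and 0.949% in the second. None of the 9 passed in either comparison by edgeR, DESeq2 (which gave no adjusted p for 1 of them) or limma voom. At an unadjusted p under 0.05 the one member was Vars, the valine gene, named after its values were seen, at -0.52 ± 0.21 in Maintenance against Saline (adjusted p = 0.303) and 0.52 ± 0.22 in Abstinence against Maintenance (adjusted p = 0.345). Whether the targets differed from the others was not tested.

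**Figure D3:**
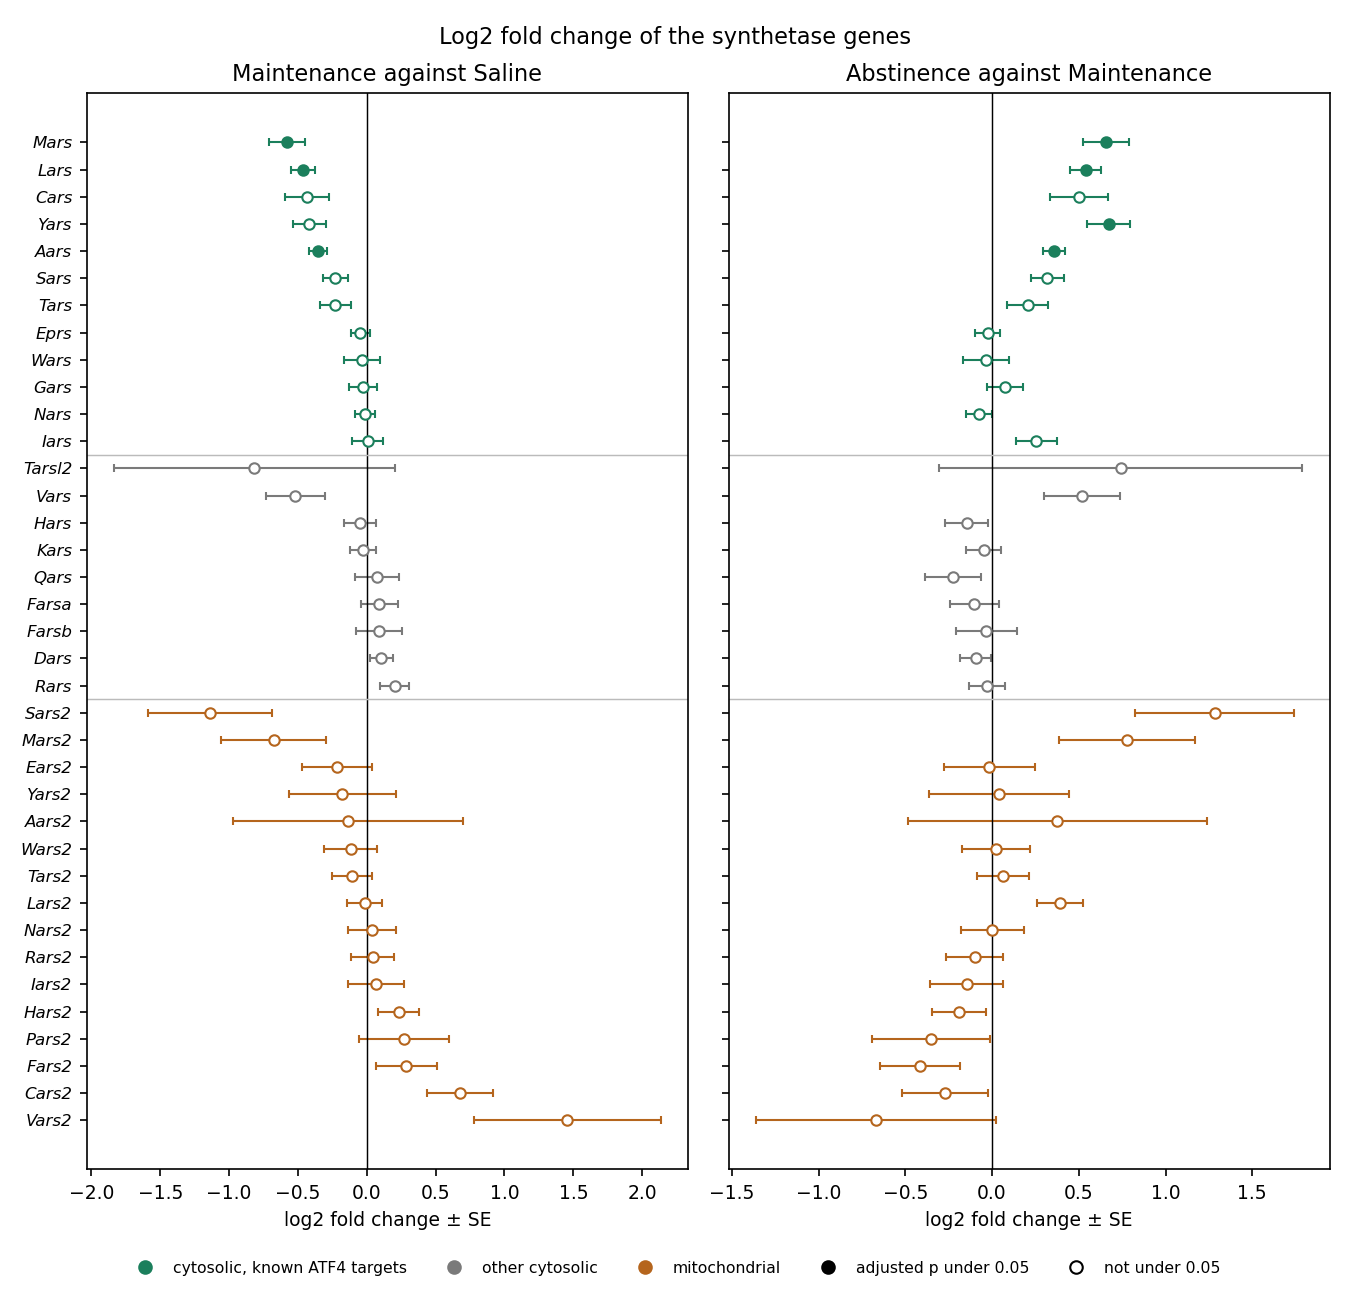
Log2 fold change (± SE) of all 37 synthetase genes in Maintenance against Saline (left) and Abstinence against Maintenance (right), grouped as cytosolic ATF4 targets, other cytosolic and mitochondrial genes, with filled points for adjusted p under 0.05. Filled points are all in the first group: 3 on the left (Aars, Lars, Mars) and 4 on the right (with Yars).

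Among the ATF4 targets that edgeR did not call, the cysteine gene Cars ran from 44.3 to 69.4 CPM in Saline, 21.4 to 62.1 in Maintenance and 42.5 to 82.0 in Abstinence. Its log2 fold changes were -0.43 ± 0.16 in Maintenance against Saline (adjusted p = 0.235) and 0.50 ± 0.17 in Abstinence against Maintenance (adjusted p = 0.167). The serine gene Sars had -0.23 ± 0.09 (adjusted p = 0.285) and 0.32 ± 0.09 (adjusted p = 0.11) in the same comparisons by edgeR, and DESeq2 called the latter (0.31, adjusted p = 0.0399). For both genes 7 of 8 Maintenance libraries were below the Saline median and 7 of 7 Abstinence libraries above the Maintenance median.

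The threonine gene Tars, named after its values were seen, had -0.23 ± 0.12 in Maintenance against Saline (adjusted p = 0.449) and 0.21 ± 0.12 in Abstinence against Maintenance (adjusted p = 0.58). The other 5 ATF4 targets lay near 0 in Maintenance against Saline. The tryptophan gene Wars, which interferon-gamma also induces in macrophages, had a log2 fold change of -0.03 ± 0.13 in Maintenance against Saline (95% interval -0.29 to 0.22). Gars, for glycine, was at -0.03 ± 0.10 (95% interval -0.23 to 0.17), Nars at -0.01 ± 0.07 (-0.15 to 0.13) and Eprs at -0.05 ± 0.07 (-0.18 to 0.09). Each of these intervals leaves out the -0.35 measured for Aars, though a difference between genes was not tested. The isoleucine gene Iars was at 0.01 ± 0.11 in Maintenance and at 0.26 ± 0.12 in Abstinence against Saline (adjusted p = 0.999).

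Rars and Hars, the arginine and histidine genes, were among the 6 cytosolic genes of smallest p in Abstinence against Saline. Rars had 0.17 ± 0.11 there (adjusted p = 0.999) and 0.20 ± 0.10 in Maintenance against Saline (adjusted p = 0.451). Hars had -0.20 ± 0.12 in Abstinence against Saline (adjusted p = 0.999). Kars, for lysine, had -0.02 ± 0.09 in Maintenance against Saline (95% interval -0.21 to 0.16). Gars and Kars, which serve both compartments, thus gave 0 of 2 called, beside 0.707% of all genes in Maintenance against Saline.

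**Figure D4:**
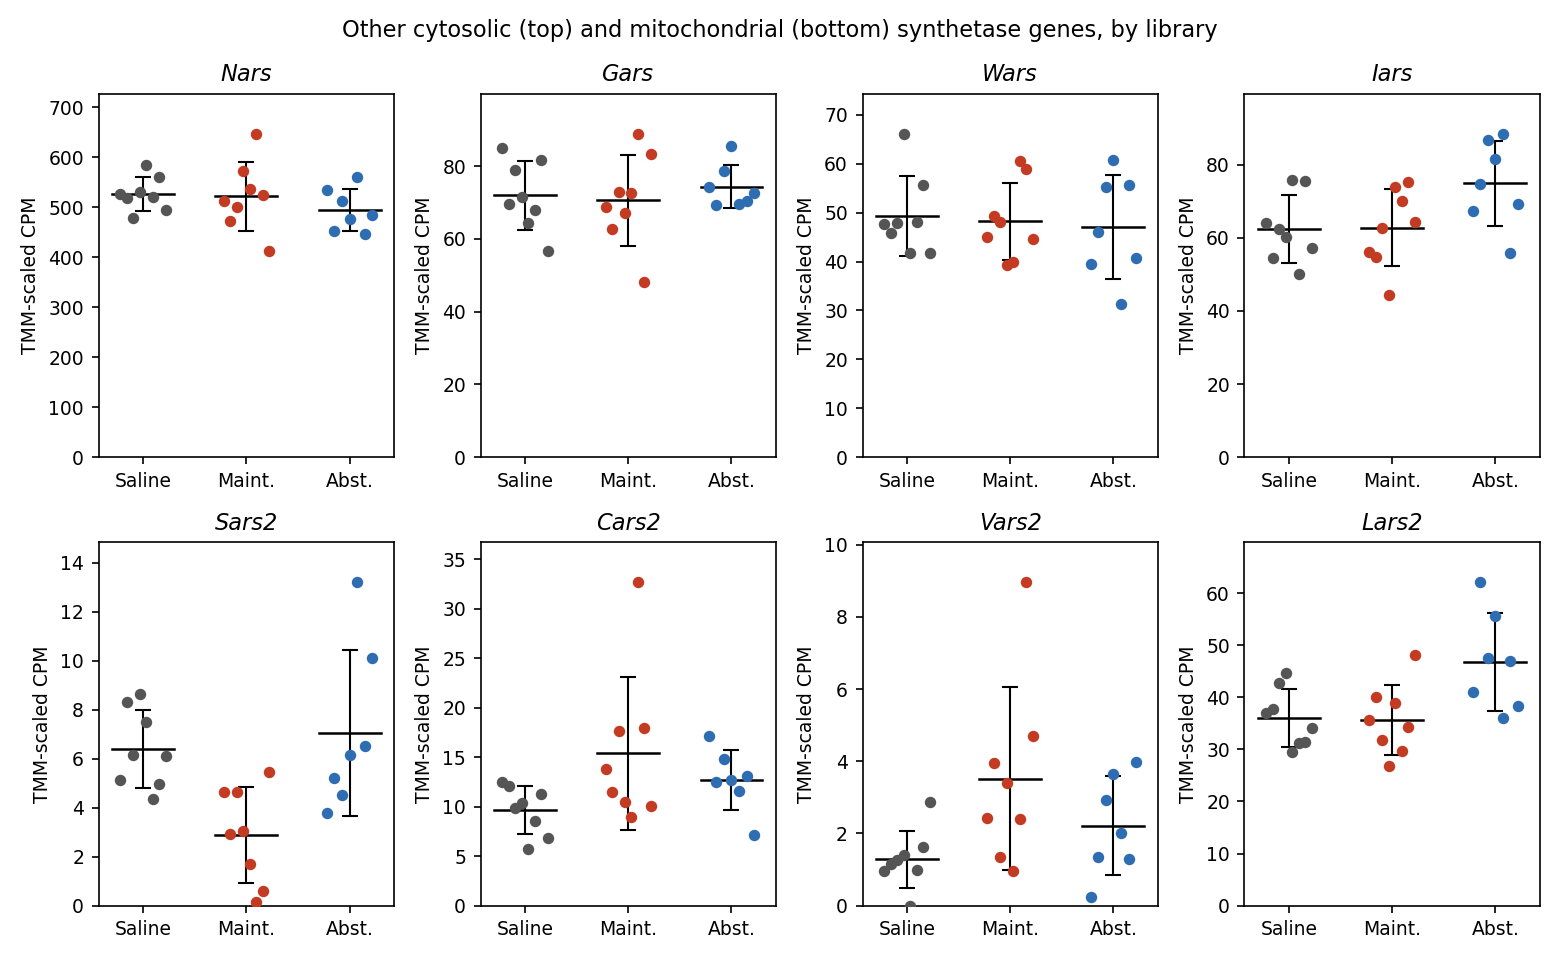
TMM-scaled CPM by library for the cytosolic genes Nars, Gars, Wars and Iars (top) and the mitochondrial genes Sars2, Cars2, Vars2 and Lars2 (bottom) in Saline (n = 8), Maintenance (n = 8) and Abstinence (n = 7), with mean and SD. The groups overlap in all 8 panels, and 1 Maintenance library stands above the rest for Cars2 (32.7 CPM) and for Vars2 (8.96 CPM).

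None of the 16 mitochondrial genes passed in any comparison by edgeR, DESeq2 or limma voom. DESeq2 gave no adjusted p for 2 of them in Abstinence against Maintenance. Of all genes edgeR called 0.707% in Maintenance against Saline, 0.0186% in Abstinence against Saline and 0.949% in Abstinence against Maintenance. Of the 16 mitochondrial genes, 8 were positive and 8 negative in Maintenance against Saline with a median of 0.01. That median was -0.18 with limma voom, -0.17 without Maintenance 6, 7 and 8, and -0.16 in the 17 libraries of the second deposited table, where the cytosolic median was also -0.16. At an unadjusted p under 0.05 there were 2 higher and 1 lower, beside 6.06% and 5.73% of all genes. Abstinence had 1 higher against Saline and 2 higher against Maintenance, with 0 lower in each. Of all genes 2.15% were higher and 2.23% lower against Saline, and 5.11% and 5.86% against Maintenance. The smallest adjusted p of the mitochondrial genes was 0.202 in Maintenance against Saline, 0.741 in Abstinence against Saline and 0.172 in Abstinence against Maintenance. Counts behind these genes were lower than behind the cytosolic genes, with a highest count in 1 library of 5877 against 48145, and standard errors were wider: the 95% interval of Ears2 in Maintenance against Saline, -0.71 to 0.28, takes in a change as large as that of Lars.

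Sars2, the mitochondrial serine gene, ran from 4.34 to 8.63 CPM in Saline (median 6.12), from 0.161 to 5.47 in Maintenance (median 2.98) and from 3.77 to 13.2 in Abstinence (median 6.13). All 8 Maintenance libraries were below the Saline median, and the ranges overlapped. The lowest values, 0.161 and 0.619 CPM, came from Maintenance 6 and 7, the libraries with the fewest genes detected. The log2 fold change of Sars2 was -1.14 ± 0.45 in Maintenance against Saline (adjusted p = 0.267) and 1.28 ± 0.46 in Abstinence against Maintenance (adjusted p = 0.214). Mars2, for mitochondrial methionine, had -0.68 ± 0.38 (adjusted p = 0.524) and 0.78 ± 0.39 (adjusted p = 0.478).

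Cars2, the mitochondrial cysteine gene, had higher values in Maintenance, from 8.94 to 32.7 CPM against 5.69 to 12.4 in Saline, with a log2 fold change of 0.67 ± 0.24 (adjusted p = 0.202). Vars2, for mitochondrial valine, ran from 0 to 2.87 CPM in Saline and from 0.964 to 8.96 in Maintenance, at 1.46 ± 0.68 (adjusted p = 0.388). The highest Cars2 value came from Maintenance 6 and the highest Vars2 value from Maintenance 7, the libraries with the fewest genes detected. The log2 fold change of Cars2 was 0.42 ± 0.20 without Maintenance 6 (adjusted p = 0.419), and that of Vars2 was 1.10 ± 0.68 without Maintenance 7 (adjusted p = 0.56).

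Lars2, the mitochondrial leucine enzyme, ran from 29.5 to 44.6 CPM in Saline (median 35.5), from 26.8 to 48.1 in Maintenance (median 34.9) and from 36.0 to 62.0 in Abstinence (median 47.0). All 7 Abstinence libraries lay above both other medians. Its log2 fold change was 0.38 ± 0.13 in Abstinence against Saline (adjusted p = 0.741) and 0.39 ± 0.13 against Maintenance (adjusted p = 0.172). The cytosolic leucine gene Lars had the values given above, -0.46 in Maintenance against Saline where Lars2 was at -0.01 ± 0.13.

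Ears2, for mitochondrial glutamate, had -0.23 ± 0.26 in Abstinence against Saline (adjusted p = 0.999). Fars2, for mitochondrial phenylalanine, had 0.29 ± 0.22 in Maintenance against Saline (adjusted p = 0.693), and its highest value, 58.5 CPM, was in Maintenance 8, the library with the high choroid plexus and ependyma markers. Without that library it was at -0.08 ± 0.13 (adjusted p = 0.911). The other 9 mitochondrial genes had log2 fold changes from -0.18 to 0.27 in Maintenance against Saline.

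Each set was then summarised within each library as the median of its genes' deviations, in log2 CPM, from their mean over the 23 libraries. The 12 ATF4 targets were below that mean in 8 of 8 Maintenance libraries (from -0.27 to -0.02), 3 of 8 Saline libraries and 1 of 7 Abstinence libraries. That set holds every called synthetase and was drawn up with earlier results of these data known. Its library values therefore restate the results above and are no separate evidence. The 9 other cytosolic genes were below it in 3 of 8 Maintenance, 2 of 8 Saline and 4 of 7 Abstinence libraries. The 16 mitochondrial genes were below it in 5 of 8 Maintenance, 4 of 8 Saline and 0 of 7 Abstinence libraries.

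**Figure D5:**
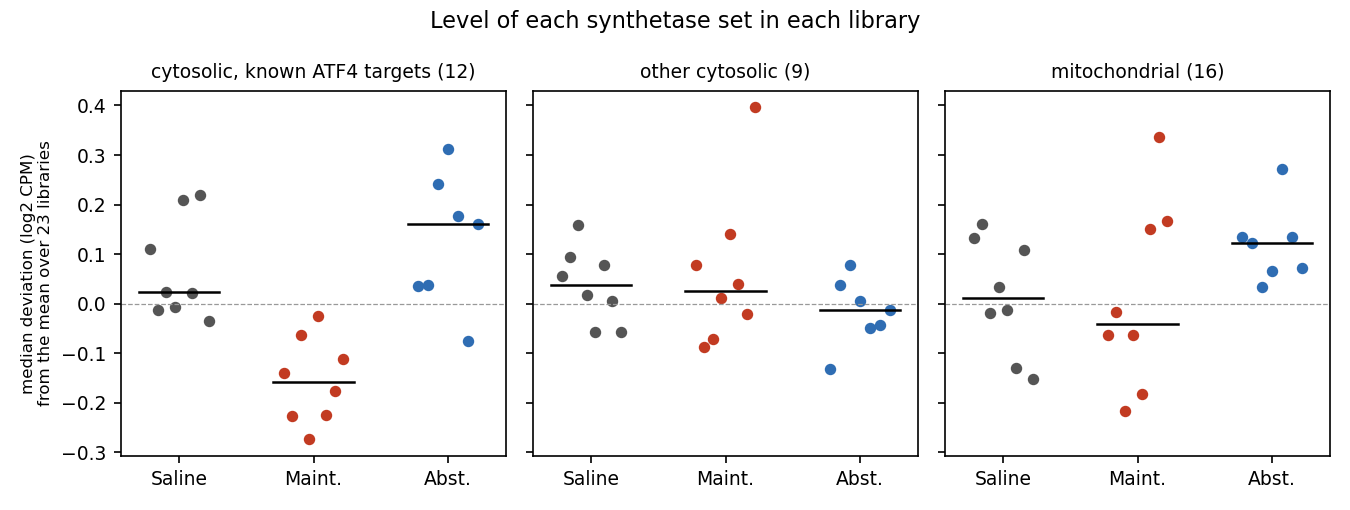
Median deviation of 3 synthetase sets in each library, in log2 CPM from the mean over 23 libraries (dashed line at 0), with a line at each group's median. The 8 Maintenance points of the ATF4 targets, which include every called synthetase, are all below 0, from -0.27 to -0.02. Those of the other sets fall on both sides of 0.

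Summed over the 21 cytosolic genes, the level was 1953 ± 114 CPM in Saline (SD, n = 8), 1808 ± 86.6 in Maintenance (n = 8) and 1951 ± 123 in Abstinence (n = 7). The sum over the 16 mitochondrial genes was 264 ± 12.5, 273 ± 36.1 and 274 ± 15.1 CPM. Library-to-library spread of the synthetase genes was widest in Maintenance: 26 of 37 genes, 13 in each compartment, had their highest coefficient of variation there. The same count was not made over all tested genes, so it cannot be told from a trait of the Maintenance libraries as a whole. The median coefficient was 14.1%, 17.5% and 13.2% for cytosolic genes in Saline, Maintenance and Abstinence, and 24.2%, 42.0% and 26.8% for mitochondrial genes. Some of the lowest genes reached 0 counts, Aars2 in 2 and Tarsl2 in 3 Maintenance libraries and Vars2 in 1 Saline library.

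The genes were also grouped by structure. Of the 8 synthetases of the multisynthetase complex (Dars, Eprs, Iars, Kars, Lars, Mars, Qars and Rars), 2 fell in Maintenance against Saline, Lars and Mars, and 4 had positive values, with a median of -0.01. Synthetases also fall into a pair of classes with unrelated catalytic folds, and Eprs belongs to both. Of 18 class I genes 2 fell in Maintenance and 3 rose in Abstinence against Maintenance (Lars, Mars and Yars). Of 18 class II genes 1 fell and 1 rose (Aars), and DESeq2 also called Sars higher in Abstinence against Maintenance. Of all tested genes 0.372% were called lower in Maintenance against Saline and 0.397% higher in Abstinence against Maintenance. The counts by complex and class sort the called genes above again and are no separate evidence.

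Promoter sequence was read for the motif TGATGNAA, the core shared by C/EBP-ATF response elements, to which ATF4 binds as a heterodimer. RefSeq promoters of GRCm38.p6, 300 bases from 250 before the start of the promoter's own transcript, were read for 27 of the 37 genes, and both strands were searched (reverse form TTNCATCA). Of the 4 called synthetases, Mars and Yars were among the 27. The motif was found in 4 of the 27 genes: Gars, Iars, Tars and Yars. All 4 are among the 7 ATF4 targets whose promoter was read, while 0 of 6 other cytosolic and 0 of 14 mitochondrial genes had it. Of all promoters of this length 3.97% held the motif, and of the tested genes with a promoter 3.06%. The targets were listed as genes known to respond to ATF4, so these counts are no separate evidence for the division. A match describes the letters only and is not shown to be a bound site. The matches are shown with the motif in capitals, 5′ to 3′ on the gene's strand, because 1 of these 4 genes (Yars) was called and 3 were not. The 30 bases printed for Gars, with the match inside them, span chr6:55037960-55037989. Those of Iars, Tars and Yars span chr13:49682126-49682155, chr15:11399655-11399684 (minus strand) and chr4:129189895-129189924. Distances are of the match from the start used for the promoter, which for Yars lies inside the gene's outermost RefSeq bounds given above.
Gars, 30 bases before the start: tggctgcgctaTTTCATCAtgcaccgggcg
Iars, 7 bases after the start: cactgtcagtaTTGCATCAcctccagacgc
Tars, 15 bases before the start: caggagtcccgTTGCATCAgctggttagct
Yars, 3 bases after the start: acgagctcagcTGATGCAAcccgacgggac

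The 250 bases before the start are printed for Mars, which was called but held no match. The stretch is chr10:127311787-127312036 on the minus strand, and G and C made up 55.2% of its bases.
Mars: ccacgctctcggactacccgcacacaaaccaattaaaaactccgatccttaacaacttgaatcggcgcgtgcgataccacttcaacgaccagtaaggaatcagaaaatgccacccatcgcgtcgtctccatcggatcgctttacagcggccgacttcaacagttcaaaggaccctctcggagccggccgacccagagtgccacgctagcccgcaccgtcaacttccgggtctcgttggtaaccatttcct

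Other genes of the amino acid response were read from a list of 35 ATF4 regulators and targets, of which 34 were tested. In Maintenance against Saline 4 fell and 0 rose by edgeR, beside 0.372% of all genes lower and 0.335% higher. There 20 were negative and 14 positive, with a median of -0.17, beside 0.01 over all genes. At an unadjusted p under 0.05, 7 were lower and 5 higher, beside 5.73% and 6.06% of all genes. In Abstinence against Maintenance 3 rose and 0 fell by edgeR, beside 0.397% of all genes higher and 0.552% lower. The unadjusted threshold took in 6 higher and 3 lower there, beside 5.11% and 5.86% of all genes. DESeq2 called 4 lower and 2 higher, and limma voom 4 lower and 4 higher, in Maintenance against Saline. For Abstinence against Maintenance DESeq2 called 4 higher and 1 lower, and limma voom 3 higher and 2 lower. The genes that moved the other way were Cebpg and Ppp1r15a, higher in Maintenance against Saline by both tools, Atf3 and Psat1, higher by limma voom, and in Abstinence against Maintenance Ppp1r15a, lower by both tools, and Ddit3, lower by limma voom. By edgeR Ppp1r15a, a phosphatase subunit that acts on eIF2, was at 0.44 ± 0.12 (adjusted p = 0.0747) and -0.38 ± 0.12 (adjusted p = 0.132) in these comparisons. The 4 that fell by edgeR encode enzymes of amino acid and folate metabolism. Mthfd2, a mitochondrial folate enzyme, went from 26.9 ± 8.15 CPM in Saline to 11.8 ± 2.58 in Maintenance, 0.441 of the Saline level (adjusted p = 0.00211). Phgdh, which starts serine synthesis, fell by 0.52 ± 0.08 (adjusted p = 0.00171). Aldh18a1, of proline synthesis, fell by 0.74 ± 0.17 and Shmt2, a mitochondrial serine hydroxymethyltransferase, by 0.62 ± 0.14 (adjusted p = 0.0359 each), all in log2 units. In Abstinence against Maintenance Mthfd2 rose by 1.78 ± 0.20 (adjusted p = 1.71e-05), Aldh18a1 by 0.79 ± 0.18 (adjusted p = 0.0247) and Phgdh by 0.38 ± 0.09 (adjusted p = 0.0294). The Atf4 transcript was at -0.17 ± 0.08 in Maintenance against Saline (adjusted p = 0.44), and its protein was not measured.

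Partners of the synthetases in tRNA charging and elongation gave 0 called genes by edgeR in each of 4 lists and 3 comparisons. Of all genes edgeR called 0.707% in Maintenance against Saline, 0.0186% in Abstinence against Saline and 0.949% in Abstinence against Maintenance. In Maintenance against Saline limma voom called 1 of these partners lower, Prorsd1, and DESeq2 0. Both tools called Prorsd1 higher and Eef2k, the kinase of elongation factor 2, lower in Abstinence against Maintenance. In Abstinence against Saline limma voom called Pdf, a mitochondrial peptide deformylase, higher and Eef2k lower, and DESeq2 0. The 9 scaffold, proofreading and tRNA export genes had a median of 0.03 in Maintenance against Saline, and the smallest p belonged to Prorsd1, a proofreading gene, at -0.50 ± 0.15 (adjusted p = 0.129) and Aarsd1, an alanyl-tRNA editing gene, at 0.37 ± 0.19 (adjusted p = 0.46). For 18 genes of mitochondrial tRNA charging and elongation the median was 0.12, with Gtpbp3, a tRNA modification gene, at 0.53 ± 0.24 (adjusted p = 0.365) and Gatb, a subunit of the glutaminyl-tRNA amidotransferase, at 0.32 ± 0.15 (adjusted p = 0.383). The 7 cytosolic elongation genes had a median of -0.10, with Eef1b2 at -0.30 ± 0.11 (adjusted p = 0.215) and Eif5a at -0.10 ± 0.05 (adjusted p = 0.447). At an unadjusted p under 0.05 these 3 lists held 1 lower, 2 higher and 1 lower gene in Maintenance against Saline, in that order. Of all genes 5.73% were lower and 6.06% higher at that threshold. All 6 selenocysteine pathway genes were negative with a median of -0.19, beside 49.4% of all genes negative and a median of 0.01, and 0 passed. Trnau1ap was at -0.46 ± 0.14 (adjusted p = 0.131, the 1 gene at an unadjusted p under 0.05) and Pstk, the seryl-tRNA kinase, at -0.26 ± 0.19 (adjusted p = 0.677).

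Since Wars responds to interferon-gamma, 12 genes induced by it were read beside it. In Maintenance against Saline 0 passed by edgeR (0.707% of all genes did), DESeq2 (no adjusted p for 1 of them) or limma voom. At an unadjusted p under 0.05, 2 were lower and 2 higher, beside 5.73% and 6.06% of all genes. By edgeR 7 were positive and 5 negative, from -0.27 to 1.16. The median was 0.12, beside 0.01 over all genes, and the smallest adjusted p was 0.189. Psmb8, an immunoproteasome subunit, was at -0.18 ± 0.08 (adjusted p = 0.316). In Abstinence against Maintenance 1 passed by edgeR, beside 0.949% of all genes. That was the guanylate-binding protein gene Gbp7, which fell by 0.59 ± 0.10 (adjusted p = 0.00255), while Wars was at -0.03 ± 0.13.

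Reads shared with other genes could touch some of these values. Exons of 11 synthetase genes overlap another gene, in 10 cases one that was tested. Aars shares 1326 exonic bases with Exosc6 on the same strand, which had a mean of 2.11 CPM, and Yars shares 30 bases with C77080, at 0.289 CPM. Hars and Hars2 overlap each other by 195 bases, and Iars is 96.0% identical to Gm4849 over 1656 bases, so their values are uncertain to that extent.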

How the data were processed

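RNA of striatal microglia was sequenced in 23 mouse libraries (8 Saline, 8 Maintenance, 7 Abstinence), prepared with a low-input kit, per the labels' protocols. The submitters' processing notes name STAR 2.7.10a, Trim Galore 0.6.7, cutadapt 1.18, DESeq2 1.38.3 and StringTie 2.1.5, and the build mm10 (GRCm38). Their order, settings and strand are not given in the sources used here. The authors deposited whole-number counts per gene symbol. A second table, also counts, covers 17 of the libraries and differed in 0 of 611592 values.

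Genes were kept with edgeR's filterByExpr (minimum count 10, minimum total 15). Counts were scaled with TMM factors and tested with edgeR 4.0.16 (glmQLFit with robust = TRUE, glmQLFTest; group as the only factor); CPM are TMM-scaled, and log2 CPM used a prior count of 2. The SE is the fold change divided by the square root of F, and 95% intervals are 1.96 SE on each side. The fit was tested on simulated data. DESeq2 1.42.0, limma 3.58.1, other scalings, filters, covariates and subsets of libraries were tried. Positions and promoters are from RefSeq (37 genes matched, 1 by synonym, Mars as Mars1) and transcript lengths from GENCODE. 1 promoter is not reported here.

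Members and lists were chosen with earlier results of these data known. Genes were named if they passed, or were among the 6 cytosolic or 4 mitochondrial genes of smallest p in a comparison, with Lars2, Wars, Kars and Gars always named. In the other lists, genes that passed and the 2 of smallest p in Maintenance against Saline were named. Vars, Tars, Atf4, Ddit3, genes called by another tool alone and genes picked out for level, overlap or sequence were added after their values were seen.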

Additional observations from a re-analysis of the deposited data

Results flagged for a closer look

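Of 63 groups of values (21 named synthetases in 3 groups), 5 held a library far from the others by Dixon's criterion, which chance alone meets in about 1 of 20 groups. All 5 were in Maintenance and in the libraries 6, 7 or 8. Yars was lowest in Maintenance 7 at 29.2 CPM, against 55.8 in the next library. Kars was lowest in Maintenance 6 at 39.0 CPM, the next being 57.8. Cars2 was highest in Maintenance 6 at 32.7 CPM (next 17.9), Vars2 in Maintenance 7 at 8.96 CPM (next 4.70) and Fars2 in Maintenance 8 at 58.5 CPM (next 20.8). Maintenance 6 and 7 had the fewest genes detected (12137 and 12386) and Maintenance 8 the most (16129), with choroid plexus and ependyma markers at 44558 CPM; their part in these values was not tested. Without these 3 libraries the log2 fold changes in Maintenance against Saline were -0.37 ± 0.07 for Aars (adjusted p = 0.00554), -0.47 ± 0.10 for Lars (adjusted p = 0.0287) and -0.59 ± 0.15 for Mars (adjusted p = 0.0684).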

How the results depend on the processing

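Of 2328 results of a single synthetase in a comparison under 37 alternatives, 2305 kept their side of the threshold, 20 lost the call and 3 gained it. Only the 3 decreases and 4 increases called in the main fit could lose a call. The decrease of Mars stayed called in 13 of 23 fits with 1 library left out and 10 of 14 other settings. Those of Aars and Lars each stayed called in 23 of 23 and 12 of 14. Each increase stayed called in 23 of 23 and in 13 or 14 of 14. No called value changed sign. Signs changed in 117 of the 2328 results, none called, the furthest from 0 being that of Fars2 in Abstinence against Maintenance (0.01 without Maintenance 6, 7 and 8). In Maintenance against Saline, synthetase calls went from 3 to 0 with the oligodendrocyte and neutrophil covariates and to 0 with the monocyte covariate (chosen after seeing the data), and were 2 to 3 with each library left out. In Abstinence against Maintenance they went from 4 to 2 with only the compared groups fitted (Mars adjusted p = 0.0603, Yars 0.0573), to 5 with DESeq2 (Sars added) and 5 with the replicate block, and were 4 to 5 with each library left out. In Abstinence against Saline they were 0 under every alternative run.

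Calls over all genes in Maintenance against Saline (main 114) were 351 with DESeq2, 413 with limma voom, 57 with only the compared groups, 34 and 24 with the 2 sets of covariates, 176 in the libraries of the second table and 42 to 197 with each library left out. In Abstinence against Saline (main 3) they were 36, 208, 5, 0, 1 and 56 in the same order, 6 with a minimum of 1 CPM, 15 without Maintenance 6, 7 and 8, and 1 to 15 with each library left out. In Abstinence against Maintenance (main 153) they were 471 with DESeq2, 340 with limma voom, 64 with only the compared groups, 77 with the monocyte covariate, 242 with a minimum of 1 CPM, 238 in the libraries of the second table and 89 to 265 with each library left out. The causes were not tested.

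The median of the mitochondrial genes in Maintenance against Saline moved from 0.01 to -0.18 with limma voom, -0.17 without Maintenance 6, 7 and 8 and -0.16 in the libraries of the second table, where the cytosolic median moved to -0.16. Other scalings moved the median of all genes by at most 0.02.

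Replicate numbers did not pair the libraries. After each gene's group mean was subtracted, same-numbered libraries of different groups correlated in log2 CPM at -0.12 to 0.09. Differently numbered libraries of different groups correlated at -0.15 to 0.17. With the replicate number as a block, calls over all genes were 69, 4 and 126, and synthetase calls 3, 0 and 5, in the order Maintenance against Saline, Abstinence against Saline and Abstinence against Maintenance.

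Low counts limit the lowest genes of both compartments: in Maintenance against Saline the standard error was 1.02 for Tarsl2, 0.83 for Aars2 and 0.68 for Vars2, where Aars had 0.06.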
